A study of Mus musculus with 21 samples.

Results

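The genes described here are 10 members of the interleukin-1 (IL-1) system: the agonists Il1a, Il1b and Il18, the antagonists Il1rn and Il18bp, and the inflammasome genes Nlrp3, Pycard, Casp1, Casp4 and Gsdmd. They were the rows of the count matrix that carried these names, 10 of 47069 genes, and each name had 1 row. RNA was measured in mouse macrophages grown from bone marrow of C57BL/6 mice, wild type or mutant, over 5 days with M-CSF-conditioned medium; IL-33, IL-4 or nothing was then present for 36 h. The doses were not given in the sources used here. Each of the 7 groups had 3 libraries, 21 in all. Wild-type cells were unstimulated or received IL-33 or IL-4, whereas those with the genotype label ST2-/- or Cx3cr1CRExGata3fl/fl were unstimulated or received IL-33. ST2, encoded by Il1rl1, is the receptor chain for IL-33. In the last genotype a Cre recombinase under Cx3cr1 control is meant to delete Gata3 in cells that express Cx3cr1, and no group with Cre alone was among the libraries. Because the gene counts did not check either deletion, the text writes ST2KO-labelled and floxed-labelled for these 4 groups.

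IL-1 alpha and IL-1 beta signal through the same receptor, and IL-1 receptor antagonist, the product of Il1rn, occupies that receptor without signalling. IL-1 beta and IL-18 are made as inactive precursors that caspase-1 cleaves after an inflammasome has formed. In that complex the sensor NLRP3 binds the adaptor ASC, which is encoded by Pycard, and ASC recruits caspase-1. Caspase-1 and caspase-4 (also called caspase-11 in the mouse) cut gasdermin D, the product of Gsdmd, whose fragment forms pores in the cell membrane. IL-18 binding protein, from Il18bp, captures mature IL-18 outside the cell. Transcript counts measure none of the cleavage steps.

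The libraries held 32.6 to 48.7 M (mega) counted reads. The macrophage genes Csf1r, Adgre1 and Cd68 stood at 830 to 4100 CPM (counts scaled to a common library size) in every library. Without cytokine, Il1rl1 had 15.7 ± 1.45 CPM in the wild type and 17.4 ± 2.95 CPM in ST2KO-labelled cells (mean ± SD, n = 3 each). Gata3 had few counts, given here as sums of 3 libraries. The sums were 17 (none), 22 (IL-33) and 23 (IL-4) in the wild type. They were 4 without and 4 with IL-33 in ST2KO-labelled cells, and 32 without and 37 with IL-33 in floxed-labelled cells. Xist was present only in the 6 floxed-labelled libraries (277 to 376 CPM) and Ddx3y only in the other 15, apart from at most 3 counts per group, so genotype and sex cannot be told apart where floxed-labelled and wild-type cells are compared. One ST2KO-labelled library with IL-33, replicate 2, stood apart from the other 2. Of 92 genes raised at least 8-fold by IL-33 in the wild type, it was the highest of the 3 for 63, and its median over them was 8.81% of the wild-type IL-33 mean against 5.78% and 5.25%. In the unstimulated ST2KO-labelled libraries the same median was 5.75%, 7.19% and 5.36%, replicate 2 again being the highest. Results that rest on it are given with and without it.

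IL-33 raised 8 of the 10 genes in wild-type cells, lowered Nlrp3 slightly and left Casp1 without a call. The rises ran from 1.23-fold for Gsdmd to 70.1-fold for Il1b, with Il1a, nearly absent beforehand, higher still. Among all 14473 genes tested, 18.5% were called higher and 16.9% lower in that comparison, and the median log2 change was 0.855 over the 10 genes against -0.000909 over all genes. IL-4 gave another pattern, with 3 genes higher (Il1rn, Pycard and Gsdmd) and 3 lower (Nlrp3, Il18 and Casp4). Its background was 25.1% of all genes called higher and 22.5% lower. Calls were made with edgeR's quasi-likelihood test at a threshold of 0.05 on the adjusted p. All 10 genes passed the filter on low counts, but Il1a did so through the IL-33 groups in which it is high, so these counts describe the genes and carry no support of their own. Nothing in the labels says whether the 3 libraries of a group came from separate animals, so the p-values rest on a spread between libraries that may be technical in part. In bulk RNA, fewer cells of a type and less RNA per cell cannot be told apart.

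**Figure D1:**
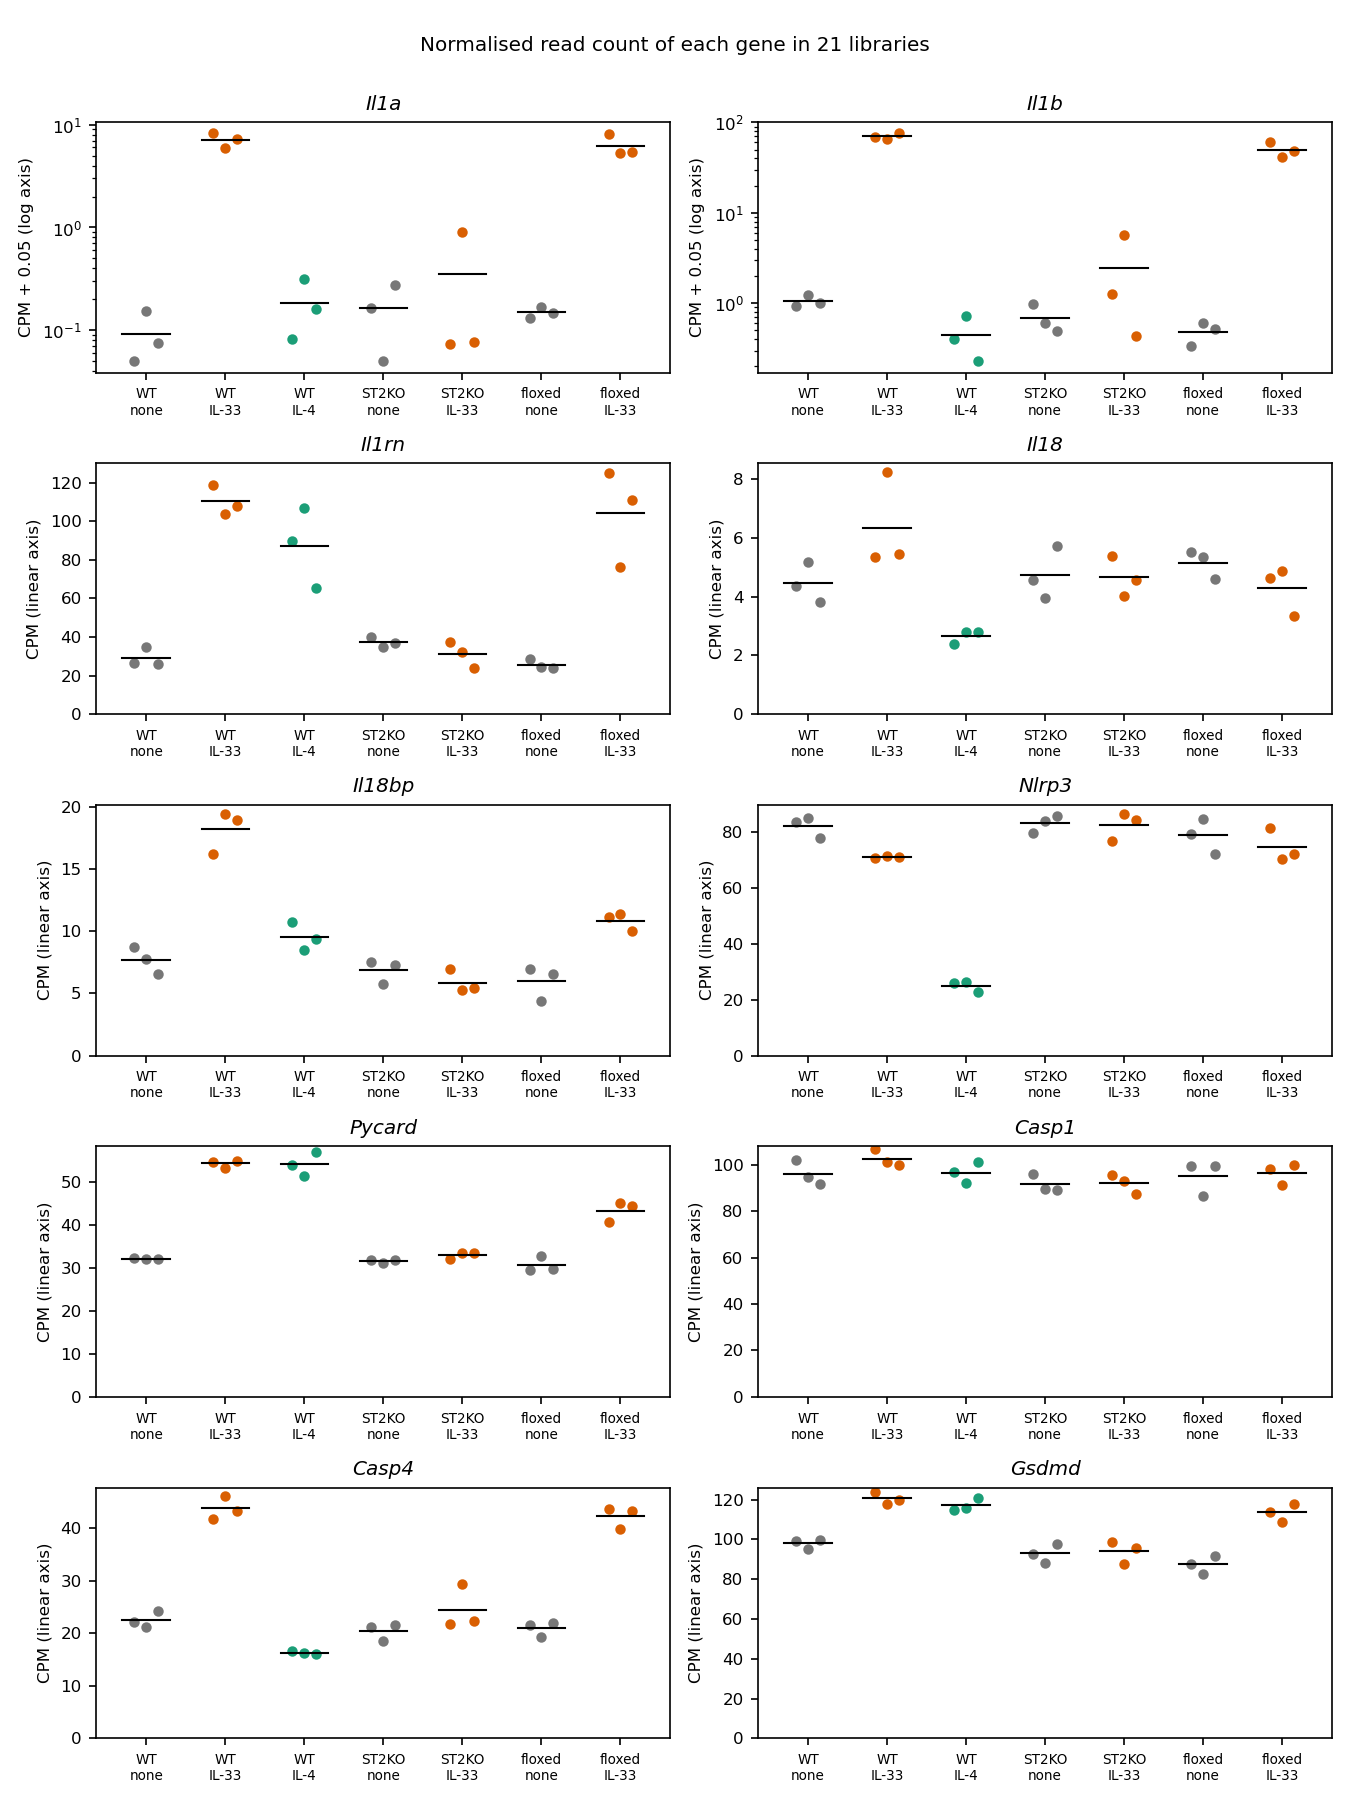
Normalised read count (CPM) of the 10 genes in each of the 21 libraries, with a panel for each gene; points are libraries in order of replicate number and bars are means of 3. Il1a and Il1b are on a log axis after adding 0.05 CPM, the others on a linear axis from 0. The IL-33 libraries of wild-type and floxed-labelled cells stand above all others for Il1a, Il1b and Casp4, and the IL-4 libraries stand below all others for Nlrp3 and Il18.

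Il1a and Il1b lie next to each other on chromosome 2 in the GRCm38 assembly, both on the minus strand, Il1a (ENSMUSG00000027399) at 129299610 to 129309972 and Il1b (ENSMUSG00000027398) at 129364570 to 129371139. The sequences just upstream are shown for Il1a, Il1b and Il1rn, the genes with the largest rises under IL-33, and for Casp4, whose levels followed those of Il1b most closely among the 10; each is 250 bases, taken from RefSeq on GRCm38.p6 and written 5′ to 3′ on the strand of the gene, ending at the base before the annotated start. Capitals mark letters that matched a searched motif on either strand.
Il1a, chr2:129309973-129310222, minus strand: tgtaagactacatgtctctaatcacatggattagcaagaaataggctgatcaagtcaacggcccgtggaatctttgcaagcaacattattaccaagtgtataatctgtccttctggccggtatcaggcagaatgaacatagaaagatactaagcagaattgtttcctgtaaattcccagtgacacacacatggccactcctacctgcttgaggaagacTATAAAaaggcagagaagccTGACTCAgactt
Il1b, chr2:129371140-129371389, minus strand: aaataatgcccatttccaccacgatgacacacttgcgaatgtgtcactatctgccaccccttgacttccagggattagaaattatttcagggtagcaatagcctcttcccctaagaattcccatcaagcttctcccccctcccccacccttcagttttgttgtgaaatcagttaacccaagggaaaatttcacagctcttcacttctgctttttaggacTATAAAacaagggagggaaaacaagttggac
Casp4, chr9:5308599-5308848, plus strand: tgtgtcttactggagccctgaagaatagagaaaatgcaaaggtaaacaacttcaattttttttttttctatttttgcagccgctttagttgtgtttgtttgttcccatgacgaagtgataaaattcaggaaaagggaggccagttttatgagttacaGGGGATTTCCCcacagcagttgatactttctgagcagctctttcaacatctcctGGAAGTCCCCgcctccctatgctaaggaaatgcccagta
Il1rn, chr2:24336610-24336859, plus strand: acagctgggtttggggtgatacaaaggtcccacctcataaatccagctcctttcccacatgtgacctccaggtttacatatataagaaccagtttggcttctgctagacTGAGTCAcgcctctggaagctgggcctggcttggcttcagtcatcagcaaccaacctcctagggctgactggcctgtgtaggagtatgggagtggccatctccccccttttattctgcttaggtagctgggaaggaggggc

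Both IL-1 agonist genes carried a TATA box (TATAAA), 32 bases upstream of the start in Il1a and 31 bases in Il1b. Of 32851 RefSeq promoter windows of the same length, 12.4% held one on either strand. An AP-1 motif (TGANTCA, 6.75% of windows) stood 12 bases upstream in Il1a and 141 bases upstream of the first of 3 annotated starts in Il1rn. The capitals in Casp4 mark the NF-kB consensus (7.25% of windows), which began 93, 92 and 39 bases upstream, with the first pair overlapping. A narrower NF-kB pattern, GGGANTTTC (0.941% of windows), was matched in none of the genes, and the consensus was added after the Casp4 sequence had been seen. The other searches were for C/EBP (TTGCNNAA, 9.56% of windows), which matched in Il18bp and Pycard, and PU.1 (GAGGAAGT, 2.44%), which matched in Pycard. The consensus also matched 186 bases upstream of a start of Nlrp3, and TATAAA matched in Il18 on the minus strand. These matches describe letters in 250-base windows, which were found for 9 of the 10 genes, Gsdmd being the one without an entry.

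Il1b was a low-count gene without IL-33 and one of the most abundant members of the set with it. The unstimulated wild-type libraries had 0.875, 1.17 and 0.952 CPM (32, 45 and 38 counts) and those with IL-33 had 69.5, 65.8 and 75.6 CPM with IL-33. The groups were far apart, a 70.1-fold rise (log2 6.13 ± 0.45 SE, adjusted p = 4.38e-10). With IL-4 the libraries held 0.348, 0.677 and 0.178 CPM, each below every unstimulated library, but the difference was not called (log2 -1.32 ± 0.77, adjusted p = 0.170). It was called when only the groups compared entered the fit (adjusted p = 0.0285) and with no expression filter (1.45e-07). Il1b was 175-fold higher with IL-33 than with IL-4 (adjusted p = 6.17e-11).

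Il1a was nearly absent without IL-33, with 0, 4 and 1 counts in the unstimulated wild-type libraries. With IL-33 it had 309, 240 and 258 counts, or 8.17, 5.90 and 7.26 CPM. The ratio of scaled counts was 163, with a 95% interval of 69.5 to 503 for counting error alone, and the fitted change was 7.25 ± 0.83 on the log2 scale (adjusted p = 3.08e-07). The IL-4 libraries had 1, 11 and 5 counts and were not called against no cytokine (adjusted p = 0.326). Part of Il1a, 222 bases or 11.2% of its exonic length, overlaps the antisense gene Gm14023, and the strand setting used for counting was not given in the sources used here.

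The rise of both agonists was seen again in floxed-labelled cells. Il1b went from 0.284, 0.548 and 0.468 CPM to 60.3, 41.5 and 47.9 CPM, with no overlap (log2 6.86 ± 0.50, adjusted p = 4.45e-10). Il1a went from 0.0810, 0.119 and 0.0986 CPM to 7.97, 5.27 and 5.38 CPM (log2 5.93 ± 0.72, adjusted p = 9.06e-07). The rise did not pass the test of a difference from the wild-type rise for Il1b (0.73 ± 0.81 log2 units, adjusted p = 0.772) or Il1a (-1.32 ± 1.47, adjusted p = 0.772), and the standard errors leave differences of more than 1 log2 unit within reach. In ST2KO-labelled cells neither gene was called with IL-33, and both rises were smaller than in the wild type in the interaction test, by -4.21 ± 0.85 log2 units for Il1b (adjusted p = 0.000749) and -5.74 ± 1.53 for Il1a (adjusted p = 0.00823). The Il1a call was lost without unstimulated ST2KO-labelled replicate 3 (adjusted p = 0.114).

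Replicate 2 of the ST2KO-labelled cells with IL-33 held most of the Il1a and Il1b reads of its group. Il1b stood at 1.21, 5.57 and 0.379 CPM with IL-33 against 0.926, 0.557 and 0.448 CPM without. Without that library the ratio of scaled counts fell from 3.88 (95% counting interval 3.04 to 5.00) to 1.28. Il1a had 1, 37 and 1 counts with IL-33 and 5, 0 and 9 without, and its ratio fell from 3.01 to 0.239. In that library Il1b stood at 7.92% of the wild-type IL-33 mean, where the other 2 were at 1.72% and 0.539%. Casp4 was also highest in that library, at 29.4 CPM against 21.7 and 22.3 CPM, as was Nlrp3, at 86.7 CPM against 77.0 and 84.3 CPM. Il1rn, Pycard and Casp1 lay within the range of the other 2, and Gsdmd, Il18 and Il18bp lay below it.

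**Figure D2:**
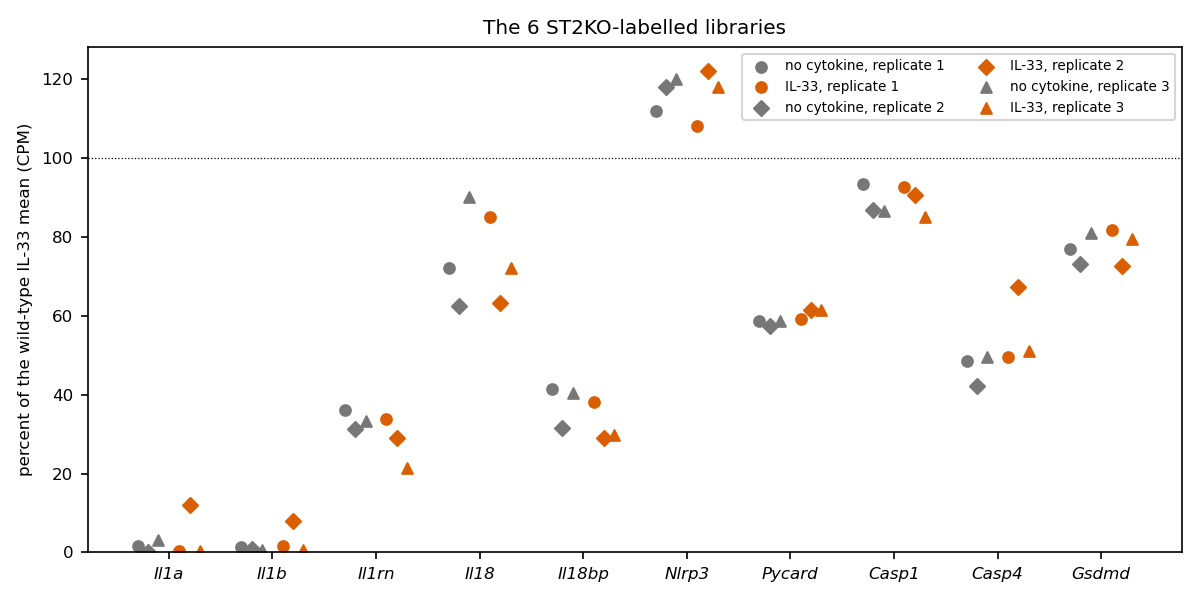
Level of each gene in the 6 ST2KO-labelled libraries as a percentage of the mean CPM of wild-type cells with IL-33 (dotted line at 100). Gray symbols are libraries without cytokine and orange ones with IL-33; the symbol shape gives the replicate number. Replicate 2 with IL-33 (orange diamond) is set apart from the other libraries for Il1a, Il1b and Casp4.

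Il1rn, the gene of the receptor antagonist (ENSMUSG00000026981, chromosome 2, 24336853 to 24351494, plus strand), rose with both cytokines. It stood at 26.5, 34.9 and 26.1 CPM without cytokine, 119, 104 and 108 CPM with IL-33 and 89.6, 107 and 65.5 CPM with IL-4. Both cytokine groups lay wholly above the unstimulated libraries, by 3.78-fold for IL-33 (adjusted p = 1.46e-08) and 2.99-fold for IL-4 (1.26e-07). The 2 cytokine groups overlapped and did not differ by the test (log2 0.34 ± 0.17, adjusted p = 0.118). Without IL-4 replicate 2 the difference was called (log2 0.52, adjusted p = 0.0261), as it was with no expression filter (1.59e-06). The rise was 4.05-fold in floxed-labelled cells, from 28.6, 24.6 and 23.9 to 125, 76.4 and 111 CPM. ST2KO-labelled cells had 40.0, 34.7 and 36.9 CPM without and 37.4, 32.0 and 23.8 CPM with IL-33, overlapping groups with no rise, and the interaction was -2.18 ± 0.25 log2 units (adjusted p = 9.26e-07). The annotated transcripts of Il1rn include secreted and intracellular forms with different starts, which gene counts do not separate.

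The balance of antagonist to agonist transcript therefore differed between the cytokines. Per length of transcript, Il1rn stood at 16.6, 16.4 and 15.1 times Il1b in unstimulated wild-type libraries, 0.938, 0.867 and 0.786 times with IL-33 and 141, 86.4 and 202 times with IL-4. The 3 groups did not overlap. Each of these differences had an exact 2-sided permutation p = 0.1, the smallest that 3 against 3 libraries can give, and 0.15 after adjustment over 15 ratio tests. Floxed-labelled cells went from 55.3, 24.6 and 28.0 to 1.14, 1.01 and 1.27 with IL-33. ST2KO-labelled libraries had ratios of 23.7, 34.1 and 45.2 without and 16.9, 3.15 and 34.3 with IL-33, the lowest again being replicate 2 (exact permutation p = 0.3). The size of the ratio depends on which transcript lengths are used (2474 bases for Il1rn and 1356 for Il1b here), whereas the comparison between groups does not.

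**Figure D3:**
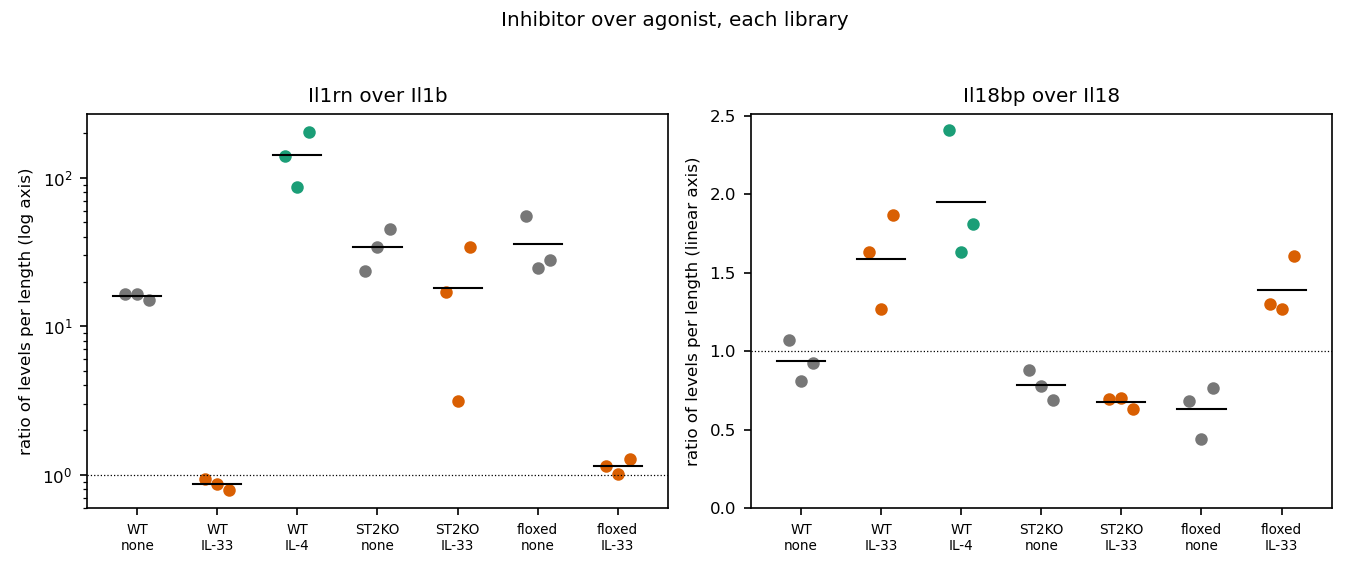
Ratio of inhibitor to agonist transcript in each library, each gene scaled to transcript length: Il1rn over Il1b on a log axis (left) and Il18bp over Il18 on a linear axis (right). Bars are means of 3, and the dotted line marks equal levels. Il1rn over Il1b is 0.786 to 0.938 in wild-type IL-33 libraries and 86.4 to 202 in IL-4 libraries, while Il18bp over Il18 is above 1 in every library of both groups. The last point depends on the transcript lengths used. Over the union of annotated exons, Il18bp (6.41) stood below Il18 (8.01) per length in wild-type IL-33 replicate 2.

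Il18 and its binding protein gene Il18bp stood at low to moderate levels in every group. Il18 (ENSMUSG00000039217, chromosome 9, 50554827 to 50581840, plus strand) was at 4.37, 5.19 and 3.83 CPM in wild-type cells without cytokine, 5.34, 8.25 and 5.46 CPM with IL-33 and 2.4, 2.81 and 2.80 CPM with IL-4. The IL-4 libraries were the lowest of the 21 (1.67-fold lower than unstimulated, adjusted p = 0.00345). The IL-33 libraries lay just above the unstimulated ones, a 1.43-fold difference (adjusted p = 0.0362) that rested on single libraries. It was lost without IL-33 replicate 2 (adjusted p = 0.325), unstimulated replicate 1 (0.0962) or unstimulated replicate 3 (0.163), and with upper-quartile scaling (0.0585) or with only the groups compared (0.0616). In floxed-labelled cells Il18 went from 5.51, 5.37 and 4.61 CPM to 4.63, 4.87 and 3.35 CPM and was not called (log2 -0.27 ± 0.19, adjusted p = 0.296). In ST2KO-labelled cells it stood at 3.96 to 5.72 CPM without and 4.02 to 5.40 CPM with IL-33.

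Il18bp (ENSMUSG00000070427, chromosome 7, 102014885 to 102018690, minus strand) rose with IL-33 and was not called with IL-4. It stood at 8.69, 7.78 and 6.59 CPM without cytokine, 16.2, 19.4 and 18.9 CPM with IL-33 and 10.7, 8.47 and 9.39 CPM with IL-4. The IL-33 libraries were apart from the other 2 groups, 2.37-fold above no cytokine (adjusted p = 1.09e-06), and the IL-4 libraries overlapped the unstimulated ones (log2 0.31 ± 0.16, adjusted p = 0.112). Floxed-labelled cells rose from 6.99, 4.39 and 6.53 CPM to 11.1, 11.4 and 10 CPM, 1.81-fold (adjusted p = 0.000171). ST2KO-labelled cells held 7.50, 5.73 and 7.31 CPM without and 6.94, 5.25 and 5.39 CPM with IL-33, and the interaction was -1.46 ± 0.22 log2 units (adjusted p = 3.50e-05). Per length, Il18bp over Il18 was 1.07, 0.809 and 0.927 in unstimulated wild-type libraries, 1.63, 1.27 and 1.87 with IL-33 and 2.41, 1.63 and 1.81 with IL-4. The cytokine groups overlapped each other and lay above no cytokine, through a higher Il18bp under IL-33 and a lower Il18 under IL-4. Il18bp overlaps Numa1 on the other strand by 80 bases.

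Nlrp3, the sensor gene (ENSMUSG00000032691, chromosome 11, 59541568 to 59566956, plus strand), was the member that separated IL-4 most clearly. It stood at 83.9, 85.1 and 77.9 CPM without cytokine and 25.9, 26.2 and 22.8 CPM with IL-4, a 3.30-fold fall (log2 -1.72 ± 0.07, adjusted p = 9.26e-15). The IL-4 libraries were far below all 18 others, which ran from 70.5 to 86.7 CPM. With IL-33 the wild-type libraries stood at 70.9, 71.6 and 71.3 CPM, below the unstimulated ones by 1.16-fold (log2 -0.21 ± 0.07, adjusted p = 0.0190). That call was lost without unstimulated replicate 2 (adjusted p = 0.0565). It was not called in floxed-labelled cells (72.3 to 84.9 CPM without, 70.5 to 81.5 CPM with IL-33) or in ST2KO-labelled cells (79.9 to 85.8 and 77.0 to 86.7 CPM), and neither difference from the wild-type response was called.

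Pycard, the adaptor gene (ENSMUSG00000030793, chromosome 7, 127989708 to 127993867, minus strand), rose to the same level with both cytokines. It stood at 32.3, 32.0 and 32.2 CPM without cytokine, 54.8, 53.4 and 54.9 CPM with IL-33 and 54.1, 51.4 and 57 CPM with IL-4. The rises were 1.69-fold (adjusted p = 2.43e-10) and 1.68-fold (1.03e-10), and the cytokine groups overlapped with a log2 difference of 0.0043 ± 0.05. In floxed-labelled cells it went from 29.5, 32.7 and 29.8 CPM to 40.7, 45.1 and 44.4 CPM, a 1.42-fold rise. With IL-33 the floxed-labelled libraries were all below the wild-type ones, by 1.25-fold (adjusted p = 0.000268), although the test of a difference in the rise itself was not passed (log2 -0.25 ± 0.08, adjusted p = 0.116). ST2KO-labelled cells held 31.9, 31.2 and 31.9 CPM without and 32.2, 33.4 and 33.4 CPM with IL-33, and their interaction was -0.70 ± 0.08 (adjusted p = 5.40e-07). Of the exonic length of Pycard, 12.8% overlaps Gm45205 on the other strand.

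The 2 inflammatory caspase genes are neighbours on chromosome 9, Casp1 (ENSMUSG00000025888) at 5298517 to 5307265 and Casp4 (ENSMUSG00000033538) at 5308828 to 5336783, both on the plus strand, and they responded differently. Casp4 stood at 22.2, 21.1 and 24.3 CPM without cytokine, 41.8, 46.2 and 43.2 CPM with IL-33 and 16.6, 16.2 and 16.1 CPM with IL-4. The 3 groups did not overlap: IL-33 was 1.94-fold above no cytokine (adjusted p = 3.58e-08) and IL-4 was 1.38-fold below it (0.000345). It rose in floxed-labelled cells as well, from 21.5, 19.2 and 22.0 CPM to 43.7, 39.9 and 43.3 CPM (log2 1.02 ± 0.09, adjusted p = 1.67e-08). In ST2KO-labelled cells it was not called, and the interaction was -0.69 ± 0.13 log2 units (adjusted p = 0.000481). Casp1, the converting enzyme of pro-IL-1 beta, stood at 102, 94.7 and 91.6 CPM without cytokine, 107, 101 and 100 CPM with IL-33 and 96.8, 92.0 and 101 CPM with IL-4. Its group means ran from 91.5 to 103 CPM over the 7 groups, and no comparison called it, the IL-33 change in the wild type being 0.10 ± 0.06 on the log2 scale (adjusted p = 0.206). Exons of the 2 caspase genes shared no run of 50 identical bases with a gene outside the set, and they were not compared with each other.

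Gsdmd, the pore-forming substrate of both caspases (ENSMUSG00000022575, chromosome 15, 75862327 to 75867408, plus strand), changed little but in separate groups. It stood at 99.1, 95.2 and 99.9 CPM without cytokine, 124, 118 and 120 CPM with IL-33 and 115, 116 and 121 CPM with IL-4. Both cytokine groups lay above no cytokine, by 1.23-fold (adjusted p = 9.73e-05) and 1.20-fold (0.000276), and they overlapped each other. Floxed-labelled cells rose 1.30-fold, from 87.6, 82.7 and 91.9 to 114, 109 and 118 CPM (adjusted p = 6.84e-06). ST2KO-labelled cells held 92.9, 88.3 and 97.8 CPM without and 98.6, 87.6 and 95.8 CPM with IL-33, overlapping throughout, and the interaction was -0.28 ± 0.07 (adjusted p = 0.00754).

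**Figure D4:**
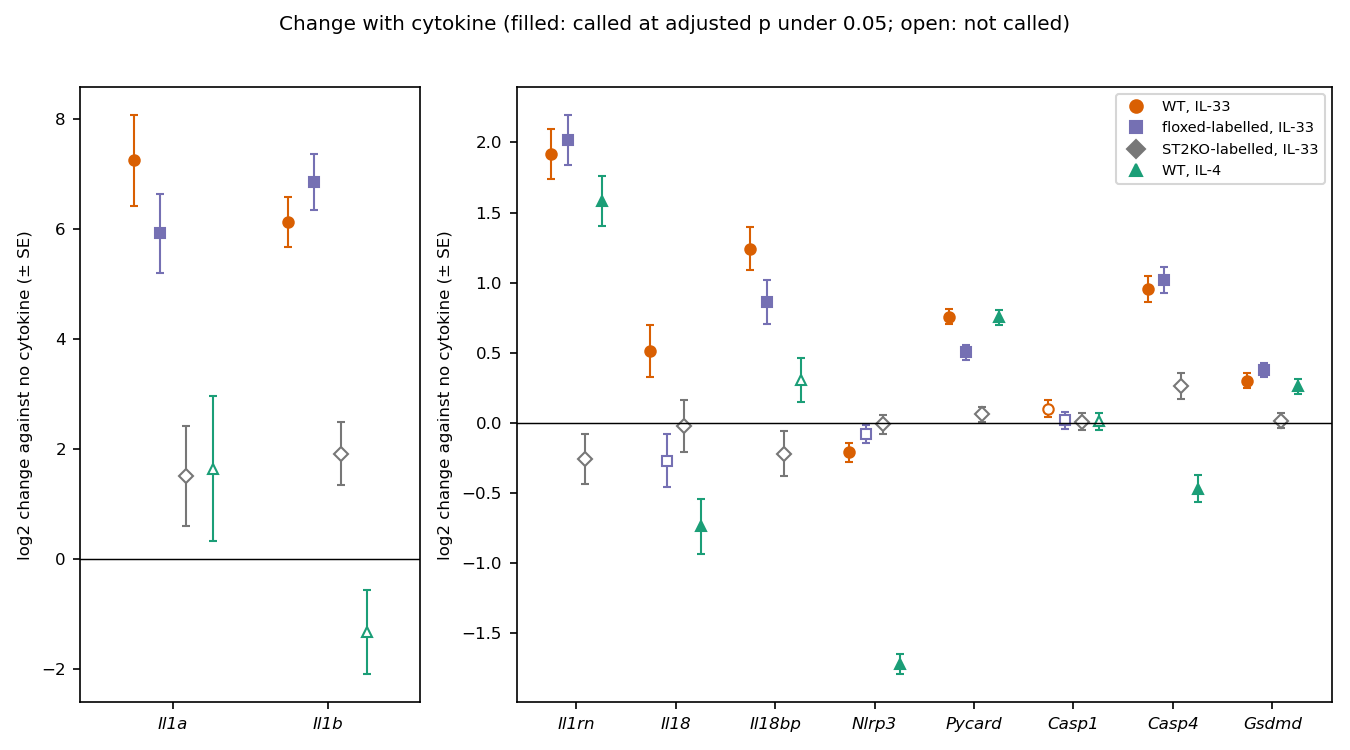
Change of each gene with cytokine against no cytokine of the same genotype (log2 ± SE, 3 libraries a group), for IL-33 in wild-type, floxed-labelled and ST2KO-labelled cells and IL-4 in wild-type cells; filled symbols passed an adjusted p of 0.05 and open ones did not. Il1a and Il1b have their own axis. The ST2KO-labelled symbols are all open, and Nlrp3, Il18 and Casp4 are the genes that IL-4 lowered.

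Compared per length of transcript (RPKM, the CPM divided by transcript length in kilobases), the order of the genes in unstimulated wild-type cells was Casp1 (64.1 ± 3.38), Gsdmd (54.7 ± 1.39), Nlrp3 (20.5 ± 0.959), Casp4 (15.7 ± 1.12), Il1rn (11.8 ± 1.99), Pycard (8.47 ± 0.036), Il18 (5.19 ± 0.794), Il18bp (4.82 ± 0.662), Il1b (0.736 ± 0.112) and Il1a (0.0218 ± 0.0274), as mean ± SD of 3 libraries. Il18 and Il18bp did not differ beyond their spread. With IL-33, Casp1 (68.8 ± 2.58) and Gsdmd (67.4 ± 1.65) were still highest and within their spread of each other, and Il1b moved to the third place at 51.9 ± 3.65, followed by Il1rn at 44.7 ± 3.07. With IL-4, Il1rn (35.3 ± 8.38) and Pycard (14.3 ± 0.731) followed Gsdmd and Casp1, and Nlrp3 dropped to 6.21 ± 0.471, within the spread of Il18bp at 5.98 ± 0.720. The order depends on the lengths used. Over the union of annotated exons, Il1b and Il1rn with IL-33 kept their order at 36.9 and 20, but in unstimulated cells Pycard (8.47) stood above Casp4 (6.08) and Il1rn (5.27). With IL-33, Casp1 and Gsdmd were then 68.8 and 50.8, in the same order as above but further apart. With IL-4 they were 64.6 and 49.4, the reverse of their order above, while Nlrp3 with IL-4 (6.15) stood above Il18bp (3.15).

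Set directly against IL-4, IL-33 gave higher levels of 6 of the 10 genes and lower levels of 0 (19.2% and 20.7% of all genes). The 6 were Il1b, Il1a, Nlrp3 (log2 1.51 ± 0.07), Casp4 (1.42 ± 0.10), Il18 (1.25 ± 0.19) and Il18bp (0.93 ± 0.15). Il1rn, Pycard, Casp1 and Gsdmd were not called. Against no cytokine, Nlrp3 was -0.21 with IL-33 and -1.72 with IL-4, Il18 0.51 and -0.74, and Casp4 0.95 and -0.47. Il1a, Il1b and Il18bp were called against no cytokine with IL-33 only, and the other 3 with both cytokines. These comparisons share the IL-33, IL-4 and unstimulated wild-type libraries.

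In ST2KO-labelled cells, IL-33 changed none of the 10 genes by edgeR's test (0% of all genes higher and 0% lower, with 507 genes at an unadjusted p under 0.05, among them Il1b at 0.00300 and Casp4 at 0.0114). DESeq2 and limma voom also called 0 of the 10, and without an expression filter Il1b was called (adjusted p = 2.36e-24). These results rested on replicate 2 with IL-33. Without it the change went from 1.92 to 0.34 on the log2 scale for Il1b (adjusted p = 0.948) and from 0.26 to 0.11 for Casp4 (0.926), and with no filter and without it Il1b was not called (0.34, adjusted p = 1). The response differed from that of the wild type for 7 genes, all smaller, and for 0 genes in the other direction, where 12.1% of all genes had a lower and 10.6% a higher response. The 7 were Il1a, Il1b, Il1rn, Il18bp, Pycard, Casp4 and Gsdmd. The remaining 3 were Casp1, Nlrp3 (0.20 ± 0.10, adjusted p = 0.150) and Il18 (-0.54 ± 0.26, adjusted p = 0.158). Without replicate 2 of the ST2KO-labelled IL-33 group the count was still 7. Unstimulated, ST2KO-labelled and wild-type cells differed in 0 of the 10 genes by edgeR's test (0.871% of all genes higher and 0.484% lower, with 2137 at an unadjusted p under 0.05, none of them a member), as also by DESeq2 and limma voom.

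In floxed-labelled cells, IL-33 raised 7 of the 10 genes and lowered 0 (17.1% and 16.3% of all genes). Of the calls over all genes 51.1% were rises, and 40.1% with upper-quartile scaling, which left the 7 calls in place. Those raised were Il1a, Il1b, Il1rn, Il18bp, Pycard, Casp4 and Gsdmd. The difference from the wild-type response was called for 0 of the 10 by edgeR's test (0.539% of all genes higher and 0.677% lower, with 1973 at an unadjusted p under 0.05), and for 0 by DESeq2 and limma voom. The nearest was Pycard, followed by Il18 (-0.78 ± 0.26, adjusted p = 0.173). Under IL-33 itself, 0 genes were higher and 2 lower than in wild-type cells (5.50% and 5.85% of all genes), Pycard and Il18bp. Il18bp was 1.67-fold lower (adjusted p = 0.00222), with 10 to 11.4 CPM against 16.2 to 19.4 CPM. Il18 lay just outside the threshold at 1.49-fold lower (adjusted p = 0.0521), with 3.35 to 4.87 CPM against 5.34 to 8.25 CPM, and it was called with DESeq2 (0.0309), with no expression filter (0.0142) or without wild-type IL-33 replicate 1 (0.0369). Its log2 difference went from -0.57 to -0.33 without wild-type IL-33 replicate 2 (adjusted p = 0.362) and to -0.42 without floxed-labelled IL-33 replicate 3 (0.241). Il1b, at 41.5 to 60.3 CPM against 65.8 to 75.6 CPM, did not overlap either and was not called (log2 -0.49 ± 0.32, adjusted p = 0.364), but it was with limma voom (0.0144), with only the groups compared (0.0171) and with no expression filter (7.42e-06). Without cytokine, 0 genes were higher and 1, Gsdmd, was lower in floxed-labelled cells (5.60% and 4.25% of all genes). Gsdmd was 1.12-fold lower with an adjusted p of 0.0499, and the call was lost without floxed-labelled replicate 1 (0.0784), floxed-labelled replicate 2 (0.241), wild-type replicate 1 (0.120) or wild-type replicate 3 (0.123). Il1rl1, the receptor gene, fell 2.27-fold with IL-33 in floxed-labelled cells to 6.44 ± 1.12 CPM, against 15.7 ± 1.14 CPM in the wild type, and its part in these differences was not tested.

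Most of the tested neutrophil and monocyte markers also rose with IL-33 in wild-type cells. Of 14 neutrophil genes 13 were tested, and 10 rose and 0 fell with IL-33 in wild-type cells (18.5% and 16.9% of all genes). Their summed level was 124 to 136 CPM without cytokine, 383 to 530 CPM with IL-33 and 207 to 218 CPM with IL-4 in the wild type, 174 to 197 and 462 to 541 CPM in floxed-labelled cells, and 137 to 159 and 145 to 154 CPM in ST2KO-labelled cells. Although the sum was higher with IL-4, only 3 of the 13 neutrophil genes rose with it and 7 fell (25.1% and 22.5% of all genes). The defining neutrophil gene Ly6g had 0 to 4 counts per group. Of 6 monocyte genes, 5 rose and 0 fell with IL-33 in the wild type (18.5% and 16.9% of all genes). Their sum went from 231 to 267 CPM to 409 to 594 CPM. With IL-4, 1 of the 6 monocyte genes rose and 3 fell (25.1% and 22.5% of all genes), while the sum was 322 to 515 CPM. Of 9 macrophage genes 5 rose and 2 fell with IL-33 (18.5% and 16.9% of all genes), and their sum went from 28200 to 31100 CPM to 37900 to 42300 CPM. With IL-4, 3 of the 9 rose and 6 fell (25.1% and 22.5% of all genes), and the sum was 15100 to 16600 CPM. The summed level of 9 lymphocyte genes was 151 to 179 CPM without cytokine, 128 to 141 CPM with IL-33 and 317 to 325 CPM with IL-4. With IL-4, 1 of the 7 tested rose and 1 fell (25.1% and 22.5% of all genes). The part of other cells, or of the macrophage genes, in the results for the 10 genes, the lower Nlrp3 with IL-4 included, was not tested.

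The wider pathway was followed in 5 lists of 60 names, of which 55 were in the table and 47 were tested. With IL-33 in the wild type 19 were higher and 6 lower (18.5% and 16.9% of all genes). Of the receptor genes, Il1rl2, Il1r1 and Il1r2 rose, while Il1rl1 (log2 0.0096, adjusted p = 0.970), Il1rap, Il18r1 and Il18rap were not called. Il1rl2, the receptor chain for IL-36, went from 2.57, 3.81 and 1.90 CPM to 33, 28.4 and 30.3 CPM (11.1-fold, adjusted p = 2.05e-13), and Il1r1, the signalling IL-1 receptor, from 1.12, 0.700 and 0.225 CPM to 2.67, 3.66 and 3.94 CPM (5.07-fold, adjusted p = 5.74e-06). The decoy receptor gene Il1r2 stood at 0.0751 to 0.363 CPM and 0.983 to 1.91 CPM, 7.65-fold apart. The groups did not overlap for these 3 genes. Of the 15 receptor and proximal signalling genes, 5 rose and Irak2 alone fell (log2 -0.55 ± 0.06). The adaptor gene Myd88 rose 1.35-fold and the inhibitory kinase gene Irak3 1.80-fold.

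Among 15 tested sensors and upstream components, 4 rose and 4 fell with IL-33 in the wild type. For this list and the next ones, the shares of all genes were 18.5% higher and 16.9% lower. Those that rose were Mefv, the pyrin gene (4.92-fold), the guanylate-binding protein genes Gbp2 (2.60-fold) and Gbp5 (2.59-fold), and Nlrc4 (1.36-fold). Nek7, which licenses NLRP3, fell 1.20-fold, Aim2, a sensor of DNA, 1.19-fold, Nlrp1b 1.28-fold and Txnip by 0.29 on the log2 scale. In the list of caspases, gasdermins and membrane rupture, 5 of 6 rose and 0 fell, among them Casp12 (3.42-fold), Ninj1 (1.21-fold) and Casp8 (log2 0.29). Of 10 inhibitors and processing proteases 4 rose, Ctsg, Prtn3 and Elane, which are granule proteases also in the neutrophil list, and Tnfaip3, an inhibitor of NF-kB signalling (2.03-fold), and Capn1 fell 1.10-fold. Of other IL-1 family ligands only Il1f9, an IL-36 gene, had enough counts to be tested. It rose from at most 0.200 CPM to at most 0.676 CPM (adjusted p = 0.0241). Like Il1a, it passed the filter through the IL-33 groups in which it is high, so this call carries no support of its own.

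With IL-4, 14 of the 47 were higher and 13 lower (25.1% and 22.5% of all genes). Il1r1 (12.4-fold), Il1rl2 (11.7-fold) and Il1rl1 (3.78-fold) rose, while Myd88 (1.69-fold), Irak3 (1.59-fold), Nlrc4 (1.55-fold), Nlrp1b (1.75-fold), Gbp5 (3.0-fold), Ninj1 (1.57-fold) and P2rx7, the ATP-gated channel upstream of NLRP3 (1.52-fold), fell. Of the 15 sensors and upstream components 5 rose with IL-4, Naip1 (2.80-fold), Mefv (2.37-fold), Gbp2 (1.79-fold), Nlrp1a (1.28-fold) and Nek7 (1.10-fold), and 6 fell. Against IL-4, IL-33 gave 20 higher and 10 lower (19.2% and 20.7% of all genes). In floxed-labelled cells IL-33 raised 18 and lowered 9 (17.1% and 16.3%), with an interaction called for Mefv (-1.08 ± 0.24, adjusted p = 0.0296) and Il1rl1 (-1.19 ± 0.21, adjusted p = 0.00405), both lower, and for 0 in the other direction (0.677% and 0.539% of all genes). Against the wild type the floxed-labelled cells had 4 higher and 3 lower without cytokine (5.60% and 4.25%), and 3 higher and 6 lower with IL-33 (5.50% and 5.85%). In ST2KO-labelled cells edgeR called 0 of the 47 with IL-33, and the response was lower than in the wild type for 16 and higher for 4 (12.1% and 10.6% of all genes).

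Unstimulated ST2KO-labelled cells differed from the wild type in 6 of the 47 genes, 4 higher and 2 lower (0.871% and 0.484% of all genes). Il1r1 stood at 30.7, 31.6 and 29.5 CPM against 1.12, 0.700 and 0.225 CPM (45.3-fold, adjusted p = 1.11e-10), and Il1rl2 at 9.77, 13.2 and 10.3 CPM against 2.57, 3.81 and 1.90 CPM (4.03-fold). Il18rap, a chain of the IL-18 receptor, was 3.76-fold lower at 3.43, 3.47 and 2.86 CPM against 11.6, 13.0 and 12.1 CPM. None of these groups overlapped, and the 3 genes belong to the receptor cluster on chromosome 1 that also holds Il1rl1, so an effect of the label and one of the flanking chromosome cannot be told apart. Pydc3, a gene of a multicopy family whose counts are uncertain, had 2.23 to 7.08 CPM against 0 to 0.0547 CPM. It passed the filter through the ST2KO-labelled groups in which it is high, so its call carries no support of its own. Tnfaip3 was 1.31-fold higher and Ninj1 1.23-fold lower.

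Genes with the most similar profile over the 21 libraries were listed for 4 members, by Pearson's r of log2 CPM among 9721 or 9722 genes. This is a description over libraries that share treatments and depth. For Il1b they were Socs3 (r = 0.983), Gpr85 (0.977) and Saa3 (0.976), and for Il1a Mmp14 (0.975), Arid5a (0.957) and Msr1 (0.955). For Il1rn they were Ccl7 (0.975), Glipr2 (0.971) and Alas1 (0.970), which like Il1rn were higher with both cytokines in the wild type: the means of Alas1 were 94.5 CPM (none), 305 CPM (IL-33) and 257 CPM (IL-4). For Nlrp3 they were Itga6 (0.988), C5ar1 (0.984) and Cd14 (0.978), each low with IL-4: Itga6 had means of 235, 178 and 43.4 CPM in the same order. Among the members themselves, Il1b and Casp4 (0.963), Il1a and Il1b (0.959), Il1a and Casp4 (0.918) and Pycard and Gsdmd (0.912) had the highest r, and Nlrp3 and Pycard the lowest (-0.662).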

How the data were processed

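The deposited values were read counts per gene from paired-end RNA sequencing, which the authors made with HISAT2 2.0.5 and HTSeq 0.6.1 on GRCm38, per the submitters' processing notes, which also name DESeq2 1.22.2. A NEBNext Ultra kit was used on 1 ug of RNA and reads were 150 bases long, per the labels' protocols; the annotation and strand setting were not given in the sources used here. The 10 genes, gene lists and tests were chosen with earlier results of these data known.

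Counts were tested with edgeR 4.0.16 in R 4.3.3 (filterByExpr, TMM scaling, 1 quasi-likelihood fit of all 21 libraries, 14 residual degrees of freedom, Benjamini-Hochberg adjustment within each comparison). The test was checked on simulated data. Alternatives were DESeq2 1.42.0, upper-quartile scaling, limma 3.58.1 voom, no filter, only the groups compared, a replicate block and each library left out. Libraries were not paired by the numbers in the titles, since correlations of same-numbered deviations were low (-0.0263 to 0.11). Weak structure shared by number was not excluded. Positions and lengths came from GENCODE M21, with 46488 of 47069 identifiers matched, and shared exon runs of 50 bases from blastn 2.17.0. Levels per length used the longest principal transcript. Genes named were the 10 members, called genes of the lists (not all of which are reported here) and the 3 genes most like each of 4 members. Il1rl1 and Gata3 served as label checks. For some marker lists the Results give no IL-33 calls. Of these, with IL-33 in the wild type 3 of 7 dendritic cell genes, 3 of 7 of mast cells and basophils, 1 of 3 of eosinophils, 0 of 7 of lymphocytes and 1 of 4 of stromal cells rose, and 0, 1, 0, 2 and 1 fell. Over all genes, 18.5% rose and 16.9% fell. Intervals for ratios of counts cover counting error only.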

Additional observations from a re-analysis of the deposited data

Results flagged for a closer look

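For 7 genes the response to IL-33 differed between ST2KO-labelled and wild-type cells by edgeR's interaction test, in each case by a smaller change in ST2KO-labelled cells. The differences were -5.74 log2 units for Il1a (adjusted p = 0.00823), -4.21 for Il1b (0.000749), -2.18 for Il1rn (9.26e-07), -1.46 for Il18bp (3.50e-05), -0.70 for Pycard (5.40e-07), -0.69 for Casp4 (0.000481) and -0.28 for Gsdmd (0.00754). In 3 of 3 wild-type libraries with IL-33 each of the 7 genes was above every unstimulated wild-type library. The groups of 3 libraries are too small for a test of single outlying libraries.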

How the results depend on the processing

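Of 38 called changes of the 10 genes, 34 kept their call and direction under every alternative tried, and none of the 38 turned in direction. The other 4 lost the call under some alternative: Il18 and Nlrp3 with IL-33 in the wild type, Gsdmd in unstimulated floxed-labelled cells and Il1a in the ST2KO-labelled interaction. The number of genes called moved by over 1.5 times as follows. Floxed-labelled against wild-type cells went from 2 to 4 with IL-33 when no expression filter was used, and from 1 to 0 without cytokine under upper-quartile scaling or with only the groups compared. Without the filter 1 gene in place of 0 was called for IL-33 in ST2KO-labelled cells and for the unstimulated ST2KO-labelled cells. The cause was not tested. Leaving out 1 library gave 0 to 1 genes for unstimulated floxed-labelled against wild-type cells and 6 to 7 for the ST2KO-labelled interaction. The DESeq2 and limma voom counts were the same as the main ones except for 3 genes in place of 2 for floxed-labelled against wild-type cells with IL-33. With the replicate block, floxed-labelled against wild-type cells with IL-33 had 3 genes called, and the other 9 counts were the same as without it. Changes that were not called and lay near 0 turned in sign. Casp1 with IL-4 was -0.0018 with DESeq2, -0.0030 without the filter, -0.0049 with only the groups compared and -0.031 with upper-quartile scaling. The last scaling also gave -0.030 and -0.0019 for Casp1 with IL-33 in floxed-labelled and ST2KO-labelled cells, and -0.00035 for Pycard between the cytokines. Single libraries left out gave, on the log2 scale, for IL-33 in ST2KO-labelled cells -0.020 to 0.045 (Casp1), -0.023 to 0.062 (Gsdmd), -0.15 to 0.13 (Il18), -1.96 to 2.45 (Il1a) and -0.051 to 0.036 (Nlrp3). Leaving out both the filter and ST2KO-labelled IL-33 replicate 2, a choice made after seeing the data, gave -0.0068 (Casp1), 0.069 (Il18) and -1.96 (Il1a) for the same comparison, none called. Between unstimulated ST2KO-labelled and wild-type cells single libraries left out gave -0.066 to 0.21 (Il18) and -0.023 to 0.044 (Nlrp3). For Casp1 they gave -0.055 to 0.055 between unstimulated floxed-labelled and wild-type cells, -0.045 to 0.063 for IL-33 in floxed-labelled cells and -0.040 to 0.036 for IL-4. With IL-33, floxed-labelled against wild-type cells gave -0.075 to 0.0029 (Casp4), -0.24 to 0.10 (Il1rn) and -0.0014 to 0.12 (Nlrp3), and the floxed-labelled interaction -0.059 to 0.29 (Il1rn). Pycard between the cytokines ran from -0.021 to 0.044. Counts over all genes moved more: 176 genes in the floxed-labelled interaction became 371 with DESeq2, 555 without the filter and 355 with the replicate block, and 196 genes between unstimulated ST2KO-labelled and wild-type cells became 403, 875 and 590, with 64.3% of the calls higher in the main test and 53.8% with DESeq2. With IL-33 in ST2KO-labelled cells 70 genes in place of 0 were called without the filter. Leaving out 1 library gave 52 (without floxed-labelled IL-33 replicate 3) to 273 genes (without wild-type IL-33 replicate 1) for the floxed-labelled interaction. It gave as few as 54 for unstimulated ST2KO-labelled cells (without wild-type replicate 3), 658 in place of 1425 for unstimulated floxed-labelled cells (without their replicate 2) and 1004 in place of 1642 for floxed-labelled against wild-type cells with IL-33 (without wild-type replicate 2). For IL-33 in floxed-labelled cells, 51.1% of the calls over all genes were rises with the main scaling and 40.1% with upper-quartile scaling. The same shares were 52.2% and 42.8% for IL-33 in the wild type, and 46.9% and 55.1% for the ST2KO-labelled interaction. No other scaling moved the median of all genes by more than 0.0482 log2 units. Il1a, at 0 to 11 counts per library without IL-33 in the wild type, was the gene most limited by depth.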
